A study of Rattus norvegicus with 12 samples.

Results

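Rat bone marrow mesenchymal stem cells (BMSCs) that had received connective tissue growth factor (CTGF) and then transforming growth factor-β1 (TGF-β1) were compared, gene by gene, with control BMSCs. The genes described are those whose mean over the 6 libraries was at least 10 normalized counts, 13576 of the 18616 genes in the deposited BMSC table. The series holds 12 RNA-seq libraries of BMSCs and of induced fibrotic chondrocytes, and its title names microtubule stabilization as a therapy for fibrocartilage. The 6 libraries used here were 3 of control cells (BMSC-C) and 3 of treated cells (BMSC-CT). Both groups were wild-type bone marrow cells kept in low-glucose DMEM with chondrogenic induction medium and antibiotics, so the controls had the induction medium too. BMSC-CT cells received CTGF for 1 week followed by TGF-β1; doses and the time with TGF-β1 are not given in the sources used here. The labels do not say whether the replicates are separate cultures or animals, so the p-values measure the spread between these libraries, which may be technical.

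CTGF is a secreted matricellular protein that binds growth factors and cell surface receptors. TGF-β1 signals through a serine/threonine kinase receptor pair and SMAD transcription factors, and is known for driving mesenchymal cells towards matrix-producing, contractile fibroblasts. Cells that secrete much protein rely on the endoplasmic reticulum (ER) for folding and on lysosomes for degradation, and both organelles have transcriptional programmes of their own: ATF6 and XBP1 act at ER stress elements, and the MiT family of factors (TFEB, TFE3, MITF) acts at E-boxes of lysosomal and melanosomal genes.

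The libraries held 16371542 to 17920362 reads. BMSC-CT replicate 3 stood apart from the other 5. It had reads on 14621 genes against 16100 to 17265 in the others, 15.8% of its reads came from genes of cytosolic ribosomal proteins against 4.19% to 6.76%, and its log2 values correlated at 0.835 and 0.864 with BMSC-CT replicates 1 and 2, which correlated at 0.977 with each other. Its values also leaned on gene length. Measured as the deviation from the median of the other libraries of its group, the median of the 2716 shortest genes was 1.20 log2 units higher in this library and that of the 2715 longest genes was at -0.95. Results are therefore given both with all 6 libraries and without BMSC-CT replicate 3. Leaving this library out did not remove the lean on length. Without it, the median log2 fold change was 0.28 in the shortest class and -0.31 in the longest. Smaller leans were present in the controls, from -0.18 to 0.17 in BMSC-C replicate 1 and from 0.18 to -0.13 in BMSC-C replicate 3.

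**Figure D1:**
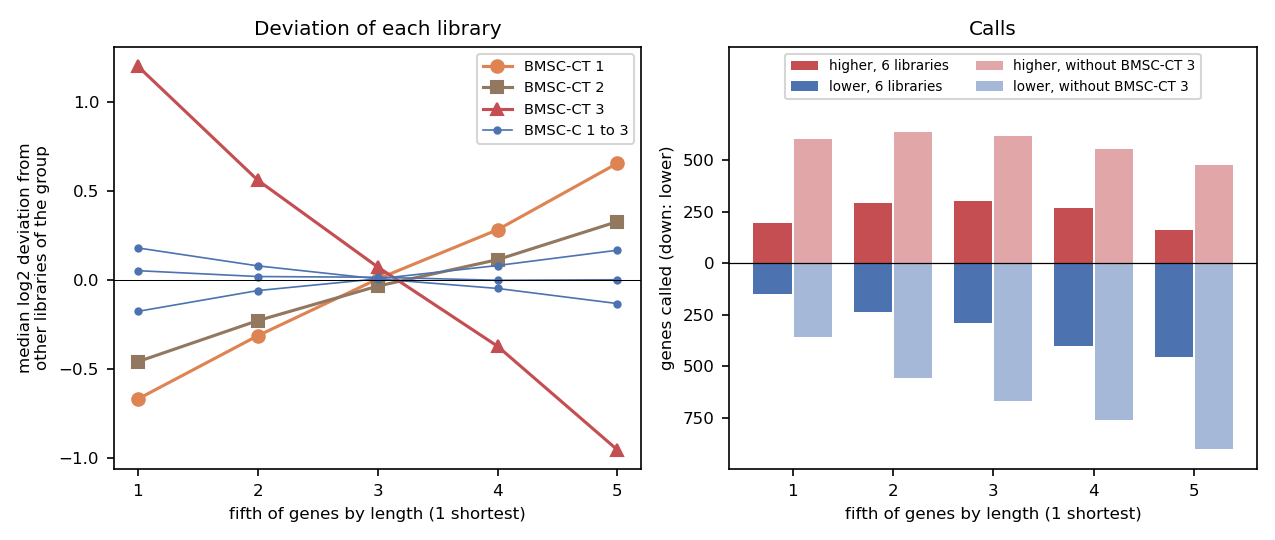
Gene length and the library that stands apart. The left panel plots, for each library, the median deviation in log2 units from the other libraries of its group against the fifth of genes by length, and BMSC-CT replicate 3 runs from 1.20 in the shortest class to -0.95 in the longest. The right panel counts the genes called higher and lower in each class, and lower calls go from 151 in the shortest class to 457 in the longest with 6 libraries.

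With all 6 libraries, 2754 of the 13576 genes (20.3%) passed limma's moderated test at a Benjamini-Hochberg adjusted p under 0.05. Among them 1217 (8.96%) were higher and 1537 (11.3%) lower in BMSC-CT. Without BMSC-CT replicate 3, 6141 genes (45.2%) passed, 2889 (21.3%) higher and 3252 (24.0%) lower. All 1217 and all 1537 genes called with 6 libraries were called in the same direction without that library, and no gene had opposite calls. Lower calls were more frequent among long genes: 151 of the 2716 shortest genes against 457 of the 2715 longest, and 359 against 903 without replicate 3. When the length trend of each library was removed, 3511 genes (25.9%) were called, 2009 (14.8%) higher and 1502 (11.1%) lower. Higher calls made up 44.2% of calls in the deposited scaling, 57.2% after removal of the length trend and 31.3% under scaling by total reads. These scalings moved the median gene by 0.20 and -0.42 log2 units, quantile normalization moved it by 0.15, and every change below is relative to the deposited scaling, in which the median log2 fold change was -0.10 with 6 libraries and -0.02 with 5.

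The size of the changes was lopsided towards losses. Among genes called with 6 libraries, 791 fell and 396 rose at least 4-fold, and 270 fell and 63 rose at least 16-fold. The split was 803 and 351 at 4-fold, and 224 and 65 at 16-fold, without BMSC-CT replicate 3. Reads were absent from all 3 BMSC-CT libraries for 43 of the 13576 genes and from all 3 BMSC-C libraries for 7, while another 575 genes were at 0 in BMSC-CT replicate 3 only. In the text that follows, values are normalized counts in replicates 1, 2 and 3 of each group, fold changes are BMSC-CT over BMSC-C on the log2(normalized count + 1) scale, and adjusted p-values are limma's with Benjamini-Hochberg adjustment over 16818 tested genes. Because these are bulk libraries, fewer cells of a type and less RNA per cell cannot be told apart. Counts of called members in each gene list below are to be read against the shares of all genes called. Those shares were 8.96% higher and 11.3% lower with 6 libraries, and 21.3% and 24.0% without BMSC-CT replicate 3.

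The largest rises and falls in this and the next paragraph were picked among genes whose groups do not overlap. Separate groups are therefore a condition of the choice and not a further result. Among all 13576 genes, 3637 were higher and 4172 lower without overlap. Among the steepest rises were the melanosome genes Mlana and Pmel, which are described with the other melanosome genes, and the following. Plxdc1 (ENSRNOG00000021536), which encodes a membrane protein first described in tumour endothelium, was at 2.44, 1.69 and 2.60 in BMSC-C and 684, 749 and 804 in BMSC-CT. The 3 control values were near the floor and all 3 treated values were close to each other (log2 fold change 7.85, SE 0.32, adjusted p = 0.000165 with 6 libraries, and 7.80, SE 0.30, adjusted p = 7.74e-05 without BMSC-CT replicate 3). Pvalb (ENSRNOG00000006471), the calcium-buffering protein parvalbumin, was at 42.3, 44.8 and 44.2 in BMSC-C and 855, 1141 and 3251 in BMSC-CT. Its control values lay within a few counts of each other, and BMSC-CT replicate 3 was the highest of the treated libraries (log2 fold change 5.04, SE 0.50, adjusted p = 0.00199 with 6 libraries, and 4.47, SE 0.19, adjusted p = 0.000106 without BMSC-CT replicate 3). Tmem176b (ENSRNOG00000008465), an intracellular cation channel-like protein of immune cells, was at 257, 233 and 281 in BMSC-C and 5039, 6894 and 16136 in BMSC-CT. Every treated library lay above every control library (log2 fold change 5.00, SE 0.43, adjusted p = 0.00127, and 4.52 without replicate 3); its neighbour and relative Tmem176a rose as well (Tmem176a log2 fold change 5.16, SE 0.48, adjusted p = 0.0017, and 4.64 without replicate 3), and the pair may share reads. Nrip2, a nuclear receptor-interacting protein, stood at 42.3, 46.5 and 60.7 in BMSC-C and 1033, 1185 and 1728 in BMSC-CT, and Vat1l at 62.6, 40.6 and 36.4 in BMSC-C and 1948, 1724 and 676 in BMSC-CT. Neither gene's groups overlapped, and BMSC-CT replicate 3 was the highest of its group for Nrip2 and the lowest for Vat1l (Nrip2 log2 fold change 4.68, SE 0.29, adjusted p = 0.000513, and 4.46 without replicate 3; Vat1l log2 fold change 4.83, SE 0.47, adjusted p = 0.00181, and 5.31 without replicate 3). The small nuclear RNA 7SK, a noncoding RNA that holds the elongation factor P-TEFb inactive, was at 4.07, 2.54 and 6.93 in BMSC-C and 581, 1124 and 5586 in BMSC-CT. Its treated values differed widely among themselves, with the highest in BMSC-CT replicate 3 (log2 fold change 8.21, SE 0.84, adjusted p = 0.00215, and 7.28 without replicate 3).

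The steepest falls included a hormone, a glycosyltransferase and a protease inhibitor. Stc1 (ENSRNOG00000015075), the calcium- and phosphate-regulating hormone stanniocalcin, was at 5836, 5092 and 4038 in BMSC-C and 17.2, 6.33 and 11.3 in BMSC-CT. The groups were far apart (log2 fold change -8.71, SE 0.38, adjusted p = 0.000165 with 6 libraries, and -8.74, SE 0.39, adjusted p = 0.000119 without BMSC-CT replicate 3). Galnt14, an enzyme that starts mucin-type O-glycans, was at 638, 711 and 813 in BMSC-C and 4.52, 4.22 and 4.83 in BMSC-CT. Its treated libraries held only a handful of reads each (log2 fold change -7.02, SE 0.30, adjusted p = 0.000165, and -7.06 without replicate 3). Lmcd1, a LIM-domain protein that binds GATA factors, was at 1364, 1562 and 1586 in BMSC-C and 9.04, 8.44 and 16.1 in BMSC-CT. All treated values were under 20 counts (log2 fold change -7.00, SE 0.32, adjusted p = 0.000196, and -7.27 without replicate 3). Slpi, the secretory leukocyte protease inhibitor, was among the 8 largest losses in absolute counts, at 41933, 39113 and 48845 in BMSC-C and 622, 742 and 2066 in BMSC-CT. BMSC-CT replicate 3 was the highest of the treated libraries but stayed far under every control (log2 fold change -5.45, SE 0.46, adjusted p = 0.00122, and -5.99 without replicate 3). Kprp, Mn1 and Gdf6 had no reads in any BMSC-CT library and means of 293, 221 and 93.9 in BMSC-C, at least 246-fold, 186-fold and 78.9-fold lower when BMSC-CT is set at a floor of 3 reads over the group.

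**Figure D2:**
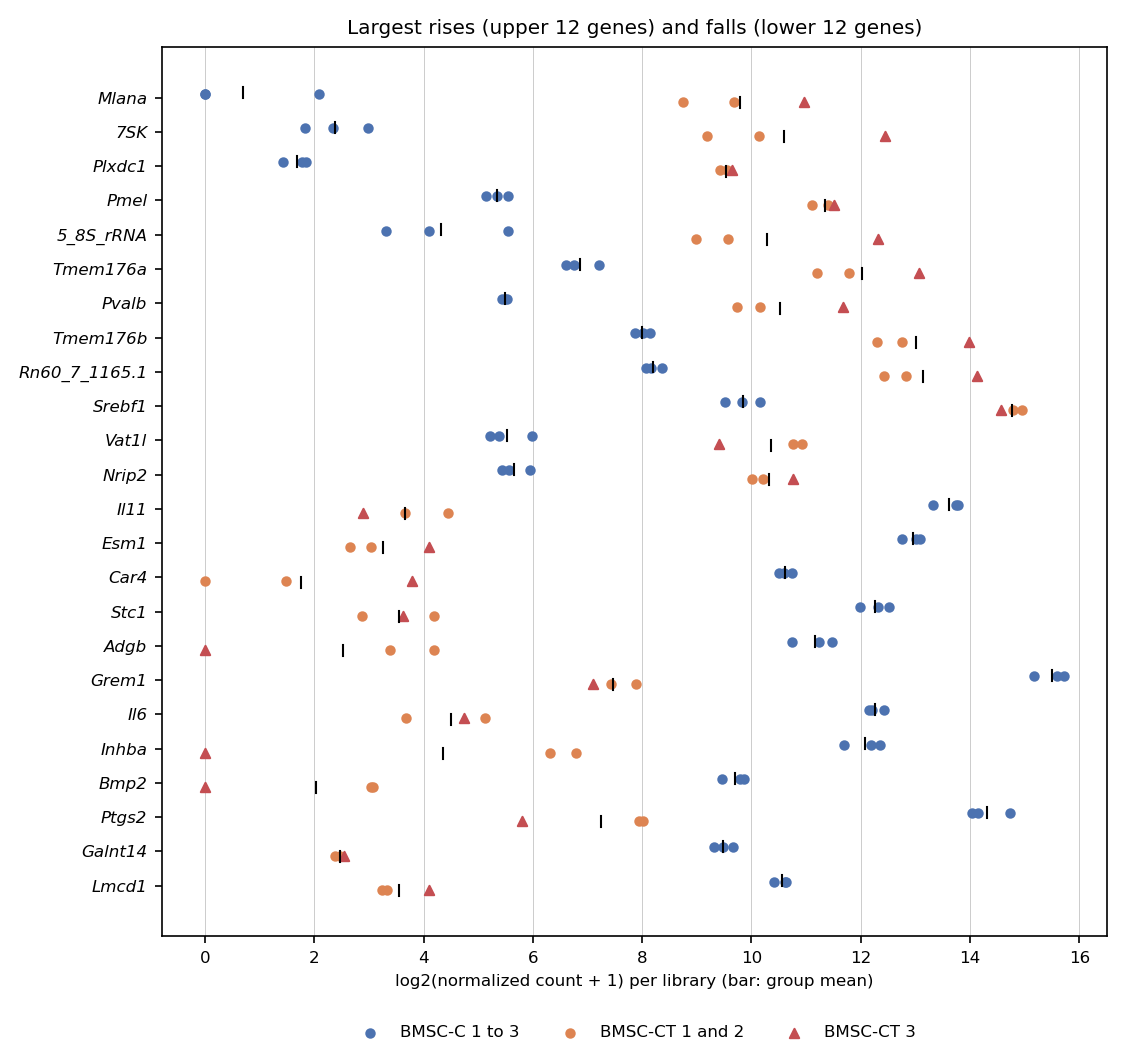
The 12 largest rises and 12 largest falls among well-expressed genes. Each point is the log2 normalized count + 1 of 1 library, coloured by group. Genes were chosen so that the groups do not overlap, as was the case for 3637 genes higher and 4172 genes lower in BMSC-CT among all 13576. Plxdc1 moves from at most 2.60 normalized counts in the controls to at least 684 in the treated libraries.

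Genes of protein folding in the ER were more often higher than lower in the treated cells. Of 34 measured members of the list of ER chaperones and ER-associated degradation, 21 were higher and 1 (Ero1l) was lower with 6 libraries, and 30 were higher and 1 lower without BMSC-CT replicate 3. Over all genes, 8.96% were higher and 11.3% lower, and 21.3% and 24.0% without that library. The median log2 fold change of the list was 1.54 (1.38 without replicate 3) against -0.10 over all genes (-0.02 without it). Leaving out BMSC-C replicate 1, 2 or 3 or BMSC-CT replicate 1 or 2, in that order (the leave-one-out order below), gave 15, 10, 15, 21 and 18 higher members. With total-read scaling 19 were higher, and with the length trend removed 25.

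Creld2 (ENSRNOG00000004659), an ER-resident disulphide isomerase, was at 549.6, 492 and 647 in BMSC-C and 5162, 4959.9 and 8226 in BMSC-CT. The lowest treated library was several times the highest control (log2 fold change 3.41, SE 0.26, adjusted p = 0.000919 with 6 libraries, and 3.17, SE 0.14, adjusted p = 0.000119 without BMSC-CT replicate 3). Dnajb11, a DnaJ co-chaperone that brings clients to BiP, was at 1979, 1711 and 1906 in BMSC-C and 8602, 8245 and 10986 in BMSC-CT. Dnajc3, the ER protein p58IPK that restrains the kinase PERK, was at 1181, 933 and 877 in BMSC-C and 4716, 3862 and 4902 in BMSC-CT. Both genes were separated between the groups, and all 3 treated libraries were within 1.5-fold of each other (Dnajb11 log2 fold change 2.30, SE 0.20, adjusted p = 0.0013, and 2.18 without replicate 3; Dnajc3 log2 fold change 2.18, SE 0.21, adjusted p = 0.00181, and 2.11 without replicate 3). Hspa5, which encodes BiP, the Hsp70 chaperone of the ER, was at 18731, 14103 and 16087 in BMSC-C and 90436, 81089 and 88453 in BMSC-CT. The treated values were all several times the controls (log2 fold change 2.42, SE 0.23, adjusted p = 0.00181, and 2.40 without replicate 3). Of 47 translocon and vesicle coat genes, 9 were higher and 0 lower, and 21 higher and 3 lower without replicate 3. Leaving out the other libraries in the same order gave 1, 0, 3, 12 and 4 higher members.

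Part of these promoters hold a common element. The ER stress element, CCAAT and CCACG with 9 free bases between them, on either strand, was searched from 250 bases before to 50 after the transcription start in RefSeq sequences of the rat build GRCr8, which were found for 9774 of the 13576 genes. It occurred in 16 of the 9774 promoters (0.164%) and in 8 of the 27 (29.6%) that belong to the ER chaperone list: Hspa5, Hsp90b1, Calr, Canx, Dnajc3, Creld2, Ero1lb and Xbp1. Of those 8, 5 were higher with 6 libraries and all 8 were higher without BMSC-CT replicate 3. In the whole list, with or without the element, 21 and 30 of 34 members were higher in these fits. The 16 genes with the element include those 8. Over all 16, 6 were higher and 0 lower, and 11 higher and 2 lower without BMSC-CT replicate 3. A match is a description of letters in this window, not a site shown to be bound. The 200 bases before the start of 4 of these genes are shown because they carry the element, in capitals (in reverse orientation in Creld2 and in the second match of Hsp90b1), at 43 bases before the start in Hspa5 (chr3:38452816-38453015, plus strand), 176 and 72 in Hsp90b1 (chr7:23012294-23012493, minus strand), 145 in Creld2 (chr7:121789184-121789383, plus strand) and 65 in Xbp1 (chr14:84604423-84604622, plus strand).
Hspa5: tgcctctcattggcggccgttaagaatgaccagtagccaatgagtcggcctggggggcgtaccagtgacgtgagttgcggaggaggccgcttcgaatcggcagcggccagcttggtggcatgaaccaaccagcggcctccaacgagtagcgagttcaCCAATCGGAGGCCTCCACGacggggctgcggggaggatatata
Hsp90b1: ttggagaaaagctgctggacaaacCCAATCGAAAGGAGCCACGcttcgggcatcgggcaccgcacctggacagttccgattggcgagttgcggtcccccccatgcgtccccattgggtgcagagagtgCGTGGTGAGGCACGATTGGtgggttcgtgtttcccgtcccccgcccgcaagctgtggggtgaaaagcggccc
Creld2: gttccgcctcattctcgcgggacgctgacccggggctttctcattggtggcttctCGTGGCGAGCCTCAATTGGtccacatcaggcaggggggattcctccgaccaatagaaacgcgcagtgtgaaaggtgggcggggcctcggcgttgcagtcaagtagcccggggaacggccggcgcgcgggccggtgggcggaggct
Xbp1: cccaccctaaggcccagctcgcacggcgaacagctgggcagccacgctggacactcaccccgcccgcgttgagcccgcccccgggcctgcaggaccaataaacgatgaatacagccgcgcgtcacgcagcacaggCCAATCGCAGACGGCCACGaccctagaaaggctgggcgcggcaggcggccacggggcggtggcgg

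Genes of other stress programmes changed in both directions. Of all genes, 8.96% were higher and 11.3% lower with 6 libraries (21.3% and 24.0% without BMSC-CT replicate 3). Of 23 measured genes of the ATF4 and amino acid synthesis list, 4 rose (Ddit3, Trib3, Sesn2 and Ppp1r15a) and 9 fell, and 6 rose and 12 fell without BMSC-CT replicate 3. Leaving out the other libraries in the same order gave 3, 3, 3, 8 and 3 lower members. Ddit3 (ENSRNOG00000006789), the stress-induced transcription factor CHOP, was at 1262, 1068 and 1206 in BMSC-C and 16818, 16341 and 71286 in BMSC-CT. All treated libraries were high and BMSC-CT replicate 3 was highest by a wide margin (log2 fold change 4.52, SE 0.57, adjusted p = 0.00449 with 6 libraries, and 3.82, SE 0.12, adjusted p = 5.06e-05 without BMSC-CT replicate 3). Psat1, an enzyme of serine synthesis, was at 1394, 1567 and 1458 in BMSC-C and 182, 202 and 346 in BMSC-CT, and Cth, which makes cysteine from cystathionine, at 482, 303 and 246 in BMSC-C and 28.0, 45.4 and 35.4 in BMSC-CT. Both fell with no overlap between groups (Psat1 log2 fold change -2.65, SE 0.29, adjusted p = 0.00257, and -2.94 without replicate 3; Cth log2 fold change -3.18, SE 0.37, adjusted p = 0.00319, and -3.17 without replicate 3). Atf4 itself passed neither fit. Of 22 cytosolic heat shock genes, 2 were higher and 7 lower, 4 and 11 without replicate 3, with 2, 2, 3, 6 and 3 lower members in the leave-one-out order above. Hsph1, a nucleotide exchange factor for Hsp70, and its relative Hspa4l both fell (Hsph1 log2 fold change -1.87, SE 0.22, adjusted p = 0.00316, and -1.71 without replicate 3; Hspa4l log2 fold change -3.08, SE 0.39, adjusted p = 0.00458, and -2.76 without replicate 3). Glycolysis and lactate genes fell in 6 of 26 and rose in 0 (12 and 2 without replicate 3), with 3, 1, 4, 4 and 3 lower in the leave-one-out order. Pdk1, the kinase that shuts pyruvate out of mitochondria, was at 528, 541 and 472 in BMSC-C and 134, 97.1 and 153 in BMSC-CT. The groups did not overlap (log2 fold change -2.02, SE 0.26, adjusted p = 0.00458, and -2.16 without replicate 3).

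Lysosomal genes were the other organelle group that rose. Of 57 measured hydrolases and membrane proteins, 26 were higher and 0 lower with 6 libraries, and 46 were higher and 1 (Ids) lower without BMSC-CT replicate 3. Of all genes, 8.96% were higher and 11.3% lower, and 21.3% and 24.0% without that library. Over the list, the median log2 fold change was 0.97, 0.94 without replicate 3, so the list moved alike in both fits. The calls were sensitive to single libraries: leaving out BMSC-C replicate 1, 2 or 3 or BMSC-CT replicate 1 or 2 left 5, 4, 12, 29 and 8 higher members, and total-read scaling left 16. With the length trend removed, 34 were higher and 0 lower. The proton pump that acidifies the lysosome had 6 of 21 subunits higher and 0 lower (15 and 0 without replicate 3), with 1, 1, 1, 6 and 1 in the leave-one-out order. Cathepsins, the lysosomal proteases, had 7 of 15 members higher and 0 lower (10 and 2 without replicate 3), with 0, 0, 1, 7 and 2 in that order. In the authors' deposited table of KEGG pathways, 69 differential genes belonged to the lysosome pathway, 64 of them up. That count compares the same groups with the authors' own test and another gene set, so it is not independent of the counts above.

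Naglu, whose product degrades heparan sulphate, was at 1102, 1435 and 1689.8 in BMSC-C and 5895, 6989 and 8416 in BMSC-CT. Hexa, the α subunit of hexosaminidase, was at 2739, 2939.8 and 3419 in BMSC-C and 10564, 12615 and 21493 in BMSC-CT. For both enzymes the lowest treated library was above the highest control, and BMSC-CT replicate 3 was the highest library (Naglu log2 fold change 2.34, SE 0.24, adjusted p = 0.00227, and 2.21 without replicate 3; Hexa log2 fold change 2.23, SE 0.30, adjusted p = 0.00567, and 1.93 without replicate 3). Mcoln1, the lysosomal calcium channel TRPML1, was at 1189, 1373 and 1485 in BMSC-C and 4123, 4795 and 6644 in BMSC-CT. Tcirg1, a membrane subunit of the proton pump, was at 1180.4, 1376 and 1574 in BMSC-C and 6432, 8343 and 12831 in BMSC-CT. Both were separated between groups (Mcoln1 log2 fold change 1.92, SE 0.24, adjusted p = 0.00409, and 1.73 without replicate 3; Tcirg1 log2 fold change 2.69, SE 0.29, adjusted p = 0.00265, and 2.42 without replicate 3). Ctsd, the protease cathepsin D, had the largest gain after Ftl1 in absolute counts of any gene called in both fits, at 36404, 46025 and 57679.7 in BMSC-C and 125506, 167809.7 and 293236 in BMSC-CT. Its groups did not overlap, but its call (adjusted p = 0.0206) was lost without any 1 of the 3 BMSC-C libraries or BMSC-CT replicate 2. The adjusted p was 0.116, 0.106, 0.0654 and 0.0677 without those libraries in turn, and 0.00742 without BMSC-CT replicate 3.

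The E-box CACGTG, a palindrome, occurred in 932 of 9774 promoters (9.54%) and in 11 of the 41 lysosomal hydrolase and membrane protein promoters (26.8%). Of those 11 genes, 6 were higher and 0 lower, and 9 and 0 without BMSC-CT replicate 3. In the whole list, with or without the E-box, 26 and 46 of 57 were higher in these fits. Over all 932 genes with the E-box, 99 were higher and 76 lower with 6 libraries, and 258 and 186 without that library. Of all genes, 8.96% were higher and 11.3% lower with 6 libraries, and 21.3% and 24.0% without it. The promoters of Lamp1, the main lysosomal membrane glycoprotein, and Cln3, a lysosomal membrane protein, are shown as examples. Both genes were higher without BMSC-CT replicate 3 and hold more than 1 E-box, as was also the case for Mcoln1 and Igf2r. The capitals are the E-boxes, at 183, 167, 150, 65 and 38 bases before the start in Lamp1 (chr16:83075064-83075263, minus strand) and 66 and 38 in Cln3 (chr1:190597930-190598129, minus strand).
Lamp1: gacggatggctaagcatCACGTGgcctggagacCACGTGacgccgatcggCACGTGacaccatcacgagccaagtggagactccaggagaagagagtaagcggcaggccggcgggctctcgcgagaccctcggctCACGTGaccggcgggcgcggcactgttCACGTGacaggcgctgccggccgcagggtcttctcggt
Cln3: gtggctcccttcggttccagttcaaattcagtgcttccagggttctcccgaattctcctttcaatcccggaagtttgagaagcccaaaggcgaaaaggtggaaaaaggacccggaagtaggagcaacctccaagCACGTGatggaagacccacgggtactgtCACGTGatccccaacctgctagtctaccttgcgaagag

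Melanosome genes are described because melanosomes are lysosome-related and share MiT regulators. Of 17 members, 6 rose (Tfeb, Pmel, Mlana, Tyrp1, Rab27a and Hps1) and 3 fell (Mitf, Tfec and Trpm1), and 9 rose and 5 fell without BMSC-CT replicate 3. In the leave-one-out order 4, 4, 5, 6 and 5 rose and 1, 0, 2, 4 and 1 fell. Of all genes, 8.96% were higher and 11.3% lower with 6 libraries, and 21.3% and 24.0% without BMSC-CT replicate 3. Tyrp1, a melanin-synthesis enzyme, was at 8.13, 16.9 and 11.3 in BMSC-C and 298, 292 and 234 in BMSC-CT. All treated libraries lay above all controls, with BMSC-CT replicate 3 the lowest of them (log2 fold change 4.44, SE 0.38, adjusted p = 0.00122 with 6 libraries, and 4.55, SE 0.35, adjusted p = 0.000558 without BMSC-CT replicate 3). Mlana, a melanosomal membrane protein, was at 3.25, 0 and 0 in BMSC-C and 821, 428 and 2002 in BMSC-CT. It was near or at 0 in the controls and spread widely among the treated libraries (log2 fold change 9.10, SE 0.81, adjusted p = 0.00142, and 8.52 without replicate 3). The M-box TCATGTG occurred in 203 of 9774 promoters (2.08%) on either strand and in 3 of the 15 of this list, those of Mlana, Tyrp1 and Gpnmb. Gpnmb was not called with 6 libraries and was higher without BMSC-CT replicate 3. Of the melanocyte markers looked for, Pmel, Mlana and Tyrp1 were measured and all 3 rose, while Tyr, Dct and Sox10 were not among the genes analysed. The part of melanocytes in this result was not tested. The upstream bases of Tyrp1 (chr5:100326925-100327124, plus strand) and Gpnmb (chr4:79340928-79341127, plus strand) are shown with the M-box in capitals, 68 and 22 bases before the start and reversed in Gpnmb.
Tyrp1: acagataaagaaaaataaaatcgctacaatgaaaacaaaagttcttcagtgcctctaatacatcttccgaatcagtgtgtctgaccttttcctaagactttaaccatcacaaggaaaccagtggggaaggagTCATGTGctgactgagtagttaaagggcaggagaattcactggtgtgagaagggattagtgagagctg
Gpnmb: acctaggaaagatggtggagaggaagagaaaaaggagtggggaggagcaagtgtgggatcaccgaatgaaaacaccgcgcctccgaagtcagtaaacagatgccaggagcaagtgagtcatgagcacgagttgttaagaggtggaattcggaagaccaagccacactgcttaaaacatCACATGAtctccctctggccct

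Genes of lipid handling were called in both directions. The shares of all genes were 8.96% higher and 11.3% lower with 6 libraries, and 21.3% and 24.0% without BMSC-CT replicate 3. Srebf1 (ENSRNOG00000003463), the transcription factor that drives fatty acid synthesis, was at 734, 912 and 1144 in BMSC-C and 28360.0, 31518 and 24117 in BMSC-CT. The treated libraries were all far above the controls and BMSC-CT replicate 3 was the lowest of them (log2 fold change 4.93, SE 0.24, adjusted p = 0.000217 with 6 libraries, and 5.03, SE 0.20, adjusted p = 8.45e-05 without BMSC-CT replicate 3). Of 17 measured fatty acid and SREBP1 genes, 4 were higher and 1 lower (8 and 2 without replicate 3), with 1, 1, 1, 5 and 1 higher in the leave-one-out order. In the lipid uptake and cholesterol efflux list, 7 of 24 rose (Abca1, Abcg1, Scarb1, Pltp, Nr1h3, Fabp3 and Cyp27a1) and 6 fell (Lpl, Cd36, Msr1, Olr1, Vldlr and Ch25h), and 13 rose and 7 fell without replicate 3. Scarb1, the HDL receptor, was at 856, 994 and 1253 in BMSC-C and 4211, 4830.1 and 5804 in BMSC-CT. Cyp27a1, which makes 27-hydroxycholesterol, was at 78.0, 74.5 and 66.7 in BMSC-C and 517, 540.3 and 579.7 in BMSC-CT. Olr1, a scavenger receptor for oxidized LDL, was at 301, 218 and 237 in BMSC-C and 28.0, 34.8 and 20.9 in BMSC-CT. Each gene's groups were separate, the first pair upward and Olr1 downward, and the changes passed the test (Scarb1 log2 fold change 2.26, SE 0.23, adjusted p = 0.00207, and 2.14 without replicate 3; Cyp27a1 log2 fold change 2.89, SE 0.23, adjusted p = 0.000945, and 2.84 without replicate 3; Olr1 log2 fold change -3.14, SE 0.33, adjusted p = 0.0023, and -2.96 without replicate 3). With the other libraries left out in the same order, the lipid list gave 3, 3, 3, 9 and 3 higher and 3, 3, 3, 6 and 3 lower members.

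**Figure D3:**
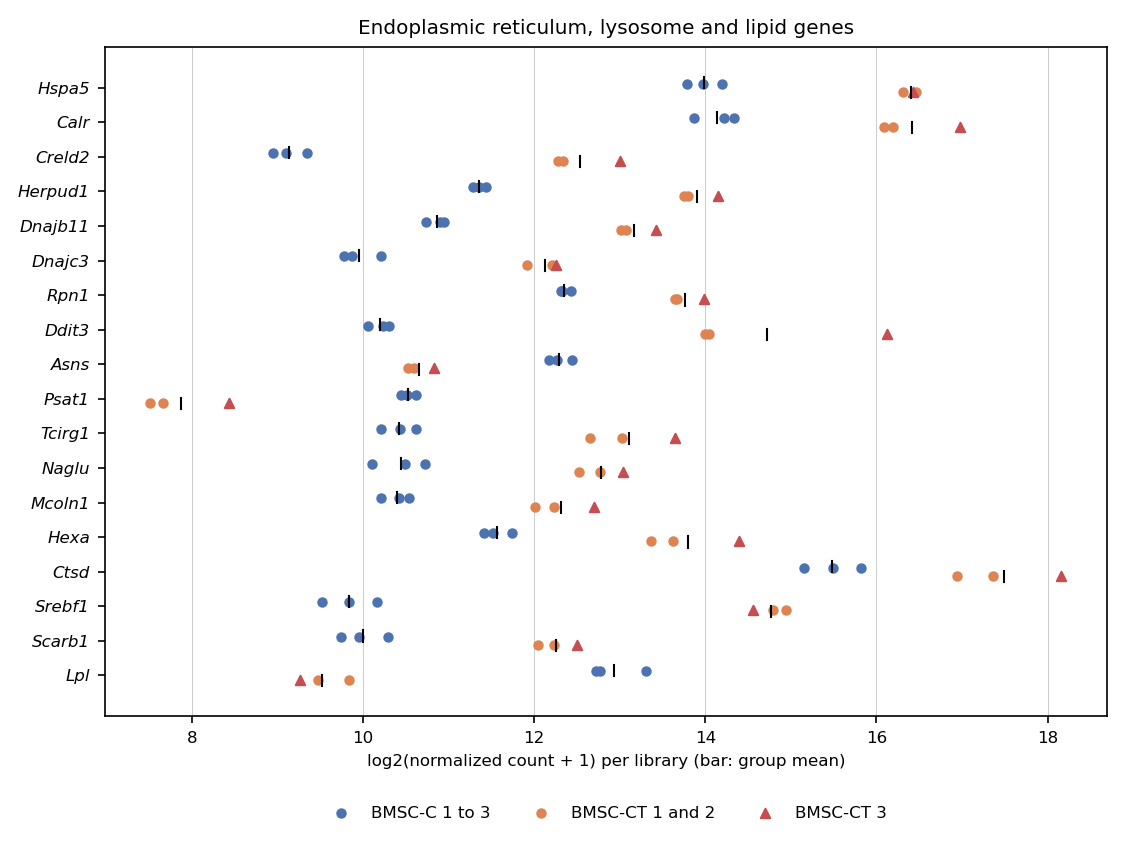
ER, stress, lysosomal and lipid genes by library. Each point is the log2 normalized count + 1 of 1 library, with the groups in separate colours. Hspa5 sits at 14103 to 18731 normalized counts in the controls and at 81089 to 90436 in the treated libraries.

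Antioxidant and iron genes also split by member. Among 33 antioxidant genes, 9 were higher and 2 lower (14 and 6 without BMSC-CT replicate 3). Over all genes the shares were 8.96% and 11.3% (21.3% and 24.0% without that library). Gpx3, the secreted glutathione peroxidase, was at 430.1, 448 and 434 in BMSC-C and 4071, 5852 and 14273 in BMSC-CT. Osgin1, an oxidative stress-induced growth inhibitor, was at 53.7, 49.9 and 71.9 in BMSC-C and 394, 482 and 1006 in BMSC-CT. Sod3, the extracellular superoxide dismutase, was at 9216, 8028 and 10491 in BMSC-C and 1181, 1338 and 1576 in BMSC-CT. The first pair was higher in every treated library and Sod3 lower in every one (Gpx3 log2 fold change 3.99, SE 0.45, adjusted p = 0.00294, and 3.48 without replicate 3; Osgin1 log2 fold change 3.30, SE 0.41, adjusted p = 0.00401, and 2.89 without replicate 3; Sod3 log2 fold change -2.76, SE 0.21, adjusted p = 0.000883, and -2.87 without replicate 3). Among 20 iron genes, 6 were higher and 4 lower (9 and 6 without replicate 3). Slc11a1, the phagosomal metal transporter NRAMP1, was at 1767, 1867 and 2482 in BMSC-C and 8159, 9631 and 10809 in BMSC-CT, and Steap3, an endosomal ferrireductase, at 457, 455 and 533 in BMSC-C and 1773, 2168 and 2692 in BMSC-CT. Both rose without overlap (Slc11a1 log2 fold change 2.23, SE 0.22, adjusted p = 0.00199, and 2.14 without replicate 3; Steap3 log2 fold change 2.18, SE 0.22, adjusted p = 0.00215, and 2.03 without replicate 3). In the leave-one-out order, higher members numbered 2, 2, 2, 11 and 4 in the antioxidant list and 2, 2, 2, 6 and 2 in the iron list.

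Growth factor genes were more often lower than higher. Of all genes, 11.3% were lower and 8.96% higher with 6 libraries (24.0% and 21.3% without BMSC-CT replicate 3). Of 32 measured ligands and receptors of the PDGF, VEGF, FGF, EGF and HGF families and a few further growth factors, among them Bdnf and Gdnf, 17 were lower and 2 (Pdgfa and Vegfb) higher, and 23 were lower and 3 higher without BMSC-CT replicate 3. Leaving out the other libraries in the same order gave 10, 10, 13, 18 and 15 lower members. With the length trend removed, 16 were lower and 3 higher. Fgf10, a mesenchymal ligand for epithelial FGF receptors, was at 7444, 5771 and 4905 in BMSC-C and 367, 299 and 195 in BMSC-CT. Hgf, hepatocyte growth factor, was at 666, 542 and 380.4 in BMSC-C and 22.6, 11.6 and 14.5 in BMSC-CT. BMSC-CT values were under every control value for both genes (Fgf10 log2 fold change -4.42, SE 0.30, adjusted p = 0.000675, and -4.16 without replicate 3; Hgf log2 fold change -4.96, SE 0.38, adjusted p = 0.00092, and -4.91 without replicate 3). Nrg1, a ligand of the ERBB receptors, was at 505, 366 and 472 in BMSC-C and 23.5, 30.6 and 20.9 in BMSC-CT, and Hbegf, an EGF receptor ligand, at 809.7, 626 and 608 in BMSC-C and 129, 118 and 129 in BMSC-CT. These ERBB family ligands were also separated between the groups, low in the treated libraries (Nrg1 log2 fold change -4.11, SE 0.30, adjusted p = 0.000816, and -3.997 without replicate 3; Hbegf log2 fold change -2.42, SE 0.23, adjusted p = 0.00167, and -2.44 without replicate 3). Genes of MAP kinase feedback, which are switched on by growth factor receptors and limit their signal, fell in 9 of 21 and rose in 1 (Etv5), and fell in 14 and rose in 2 without replicate 3, with 7, 7, 8, 8 and 7 lower in the leave-one-out order. With the length trend removed, 7 of them fell and 2 rose. Spry1, a Sprouty inhibitor of receptor tyrosine kinase signalling, was at 2934, 3421 and 3206 in BMSC-C and 330.0, 377 and 196 in BMSC-CT. Phlda1, a growth-factor-induced pleckstrin homology-like domain protein, was at 5257, 4908 and 6884 in BMSC-C and 445, 547 and 388 in BMSC-CT. The treated libraries were low throughout (Spry1 log2 fold change -3.45, SE 0.28, adjusted p = 0.00111, and -3.17 without replicate 3; Phlda1 log2 fold change -3.62, SE 0.23, adjusted p = 0.000516, and -3.51 without replicate 3).

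Genes of the BMP and activin branches were more often lower than higher. The shares of all genes were 11.3% lower and 8.96% higher (24.0% and 21.3% without BMSC-CT replicate 3). Of 26 measured ligands, antagonists and target or feedback genes (the Id genes, Smad6, Smad7 and Bambi), 13 were lower and 3 (Gdf15, Chrd and Bambi) higher, and 15 were lower and 4 higher without BMSC-CT replicate 3. In the leave-one-out order, 9, 9, 9, 13 and 9 were lower. With the length trend removed, 15 were lower and 3 higher. Inhbb, the βB subunit of activin and inhibin, was at 1533, 1800.3 and 1733 in BMSC-C and 11.8, 16.9 and 11.3 in BMSC-CT. It was near the floor in the treated libraries (Inhbb log2 fold change -6.90, SE 0.27, adjusted p = 0.000165, and -6.80 without replicate 3). Secreted Wnt antagonists and feedback targets fell in 10 of 20 and rose in 1 (Rspo1), 12 and 1 without replicate 3, with 7, 6, 8, 10 and 8 lower in the leave-one-out order. Sfrp1 and Sfrp2, decoys that bind Wnt ligands, were at 702, 666 and 512 in BMSC-C and 19.0, 17.9 and 29.0 in BMSC-CT, and at 449, 403 and 486 in BMSC-C and 28.0, 26.4 and 24.2 in BMSC-CT, respectively. Wnt5a, a noncanonical Wnt ligand, was at 8104, 7078 and 7198 in BMSC-C and 697, 689 and 213 in BMSC-CT. The groups of these 3 genes did not overlap, and BMSC-CT replicate 3 was the lowest library for Sfrp2 and Wnt5a (Sfrp1 log2 fold change -4.79, SE 0.31, adjusted p = 0.000597, and -5.00 without replicate 3; Sfrp2 log2 fold change -4.04, SE 0.26, adjusted p = 0.000578, and -3.98 without replicate 3; Wnt5a log2 fold change -3.99, SE 0.47, adjusted p = 0.00347, and -3.42 without replicate 3). Igfbp3, the main carrier of IGF in serum, was at 4233, 3552 and 4173 in BMSC-C and 188, 169.9 and 243 in BMSC-CT, and Igfbp4, another carrier, at 1298, 1885 and 1669 in BMSC-C and 5498, 5762 and 9185 in BMSC-CT. Igfbp3 was lower and Igfbp4 higher in every treated library (Igfbp3 log2 fold change -4.32, SE 0.22, adjusted p = 0.000247, and -4.47 without replicate 3; Igfbp4 log2 fold change 2.05, SE 0.28, adjusted p = 0.00546, and 1.82 without replicate 3).

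The genes of the 2 added factors were not called. Ctgf was at 4836, 5659 and 4195 in BMSC-C and 4045, 3929.9 and 3539.6 in BMSC-CT. Its groups did not overlap, but the difference did not pass limma's test with 6 libraries (adjusted p = 0.234) or without BMSC-CT replicate 3 (adjusted p = 0.179, 95% interval of the log2 fold change -0.66 to 0.09). Tgfb1 was at 5242, 5391 and 7909 in BMSC-C and 7985, 10174 and 15123 in BMSC-CT. The lowest treated library was just above the highest control, and neither fit called it (adjusted p = 0.104 with 6 libraries and 0.09 without replicate 3). Groups without overlap were common among the 13576 genes, with 3637 higher and 4172 lower in BMSC-CT.

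Inflammatory mediators were more often lower than higher. Over all genes, 11.3% were lower and 8.96% higher (24.0% and 21.3% without BMSC-CT replicate 3). Of 22 chemokine genes, 11 were lower and 2 (Cxcl10 and Cx3cl1) higher, 16 and 2 without BMSC-CT replicate 3, with 6, 7, 8, 10 and 7 lower in the leave-one-out order. With the length trend removed, 16 chemokine genes were lower and 2 higher. Ccl12, a monocyte-attracting chemokine, was at 5695, 4305 and 6545 in BMSC-C and 547, 655 and 754 in BMSC-CT. Among 15 genes of the IL-1 family and its receptors, 6 were lower and 0 higher, 10 and 0 without replicate 3, with 5, 4, 5, 8 and 6 in the leave-one-out order. Il33, a nuclear alarmin cytokine, was at 1379.6, 1183 and 861 in BMSC-C and 11.8, 4.22 and 27.4 in BMSC-CT, and Il1rl1, its receptor ST2, at 489, 366 and 442 in BMSC-C and 4.52, 2.11 and 3.22 in BMSC-CT. Ligand and receptor were both low in every treated library (Il33 log2 fold change -6.50, SE 0.62, adjusted p = 0.00181, and -7.10 without replicate 3; Il1rl1 log2 fold change -6.69, SE 0.38, adjusted p = 0.000365, and -6.70 without replicate 3), as was Ccl12 (Ccl12 log2 fold change -3.07, SE 0.24, adjusted p = 0.000945, and -3.18 without replicate 3). Il1rn, the IL-1 receptor antagonist, was at 3527, 2838 and 3634 in BMSC-C and 429.5, 509 and 646 in BMSC-CT. It fell with no overlap (log2 fold change -2.67, SE 0.23, adjusted p = 0.00128, and -2.82 without replicate 3). Prostaglandin genes fell in 8 of 16 and rose in 3 (9 and 6 without replicate 3), with 2, 3, 4, 8 and 4 lower in the leave-one-out order. Ptges, the inducible prostaglandin E synthase, was at 9169, 7301 and 10059.8 in BMSC-C and 87.7, 138 and 204 in BMSC-CT. The highest treated library was far under the lowest control (log2 fold change -6.01, SE 0.34, adjusted p = 0.000365 with 6 libraries, and -6.30, SE 0.23, adjusted p = 7.4e-05 without BMSC-CT replicate 3). Cd55, which shields cells from complement, was at 9940.2, 8088 and 6191 in BMSC-C and 164, 148 and 98.2 in BMSC-CT. All treated values were under 200 counts (log2 fold change -5.88, SE 0.29, adjusted p = 0.000227, and -5.66 without replicate 3).

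Immediate early genes, the first transcripts induced by growth factors and stress, fell in 9 of 24 and rose in 3 (Atf3, Batf and Batf3), counts that were equal with 6 and with 5 libraries. The shares of all genes were not equal: 11.3% were lower and 8.96% higher with 6 libraries, and 24.0% and 21.3% without BMSC-CT replicate 3. Against all genes, the list therefore stood out less without that library. In the leave-one-out order 6, 6, 8, 9 and 8 fell and 0, 0, 2, 3 and 0 rose. Nr4a1, an orphan nuclear receptor, was at 2327, 2368 and 2505 in BMSC-C and 264, 241 and 225 in BMSC-CT, and Fosl1, an AP-1 subunit, at 628, 569 and 666 in BMSC-C and 71.4, 76.0 and 67.6 in BMSC-CT. Both fell with tight values in each group (Nr4a1 log2 fold change -3.30, SE 0.18, adjusted p = 0.000339, and -3.25 without replicate 3; Fosl1 log2 fold change -3.10, SE 0.22, adjusted p = 0.000796, and -3.06 without replicate 3). The AP-1 site TGANTCA occurred on either strand in 474 of 9774 promoters (4.85%), in 53 of the 892 (5.94%) called higher and in 68 of the 1107 (6.14%) called lower with 6 libraries. The site was thus about as frequent among genes called higher as among genes called lower, and examples from either side would carry it. The promoters of the cytokine Il11 and the protease Mmp3, 2 genes among the named falls, are shown with the site in capitals, 142 and 71 bases before the start (chr1:78098422-78098621, plus strand, and chr8:12925081-12925280, plus strand).
Il11: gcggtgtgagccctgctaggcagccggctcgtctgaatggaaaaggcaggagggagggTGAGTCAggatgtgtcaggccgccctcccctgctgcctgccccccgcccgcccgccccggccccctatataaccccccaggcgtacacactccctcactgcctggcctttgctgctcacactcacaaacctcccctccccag
Mmp3: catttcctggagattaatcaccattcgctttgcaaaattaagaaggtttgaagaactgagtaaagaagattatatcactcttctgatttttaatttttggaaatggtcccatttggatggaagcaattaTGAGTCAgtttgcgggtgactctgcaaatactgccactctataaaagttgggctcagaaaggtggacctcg

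Genes of the hyaluronan matrix, ADAMTS proteases and elastic fibres were more often lower than higher. The shares of all genes were 11.3% lower and 8.96% higher (24.0% and 21.3% without BMSC-CT replicate 3). Of 12 genes of the hyaluronan matrix, 6 were lower and 0 higher (7 and 2 without BMSC-CT replicate 3), with 5, 5, 6, 7 and 5 lower in the leave-one-out order. Has2, a hyaluronan synthase, was at 472, 366 and 288 in BMSC-C and 2.71, 4.22 and 3.22 in BMSC-CT. Cemip, which binds and degrades hyaluronan, was at 22542, 21570.4 and 23750.5 in BMSC-C and 778, 669 and 377 in BMSC-CT. The synthase and the degrading protein were both low in all treated libraries (Has2 log2 fold change -6.41, SE 0.37, adjusted p = 0.000387, and -6.39 without replicate 3; Cemip log2 fold change -5.28, SE 0.30, adjusted p = 0.000365, and -4.97 without replicate 3). ADAMTS proteases and TIMPs fell in 7 of 16 and rose in 0 (8 and 1 without replicate 3, and 1, 1, 2, 6 and 4 lower in the leave-one-out order), and elastic fibre genes fell in 6 of 15 and rose in 1 (10 and 2, and 5, 3, 5, 7 and 5). Plat, tissue plasminogen activator, was at 6471, 5942 and 6186 in BMSC-C and 399.7, 341 and 394 in BMSC-CT. It was lower in every treated library (Plat log2 fold change -4.03, SE 0.18, adjusted p = 0.000165, and -4.07 without replicate 3). Of 22 integrin subunits, 1 rose and 5 fell (3 and 9 without replicate 3, and 2, 2, 2, 6 and 3 lower in the leave-one-out order). With the length trend removed, 3 subunits rose and 6 fell, and the median log2 fold change went from -0.55 to 0.03. The subunit that rose with 6 libraries was Itga11, the collagen-binding α11 chain, at 135, 104 and 108 in BMSC-C and 2711, 2617 and 1155 in BMSC-CT. BMSC-CT replicate 3 was the lowest treated library and still above every control (log2 fold change 4.12, SE 0.37, adjusted p = 0.00153 with 6 libraries, and 4.52, SE 0.16, adjusted p = 6.2e-05 without BMSC-CT replicate 3). Itga8, the α8 chain that binds nephronectin, was at 1264, 803 and 812 in BMSC-C and 7.23, 11.6 and 4.83 in BMSC-CT, a fall without overlap (log2 fold change -6.79, SE 0.40, adjusted p = 0.000387, and -6.53 without replicate 3). Fibrillar collagen chains rose in 4 of 9 and fell in 1, Col27a1 (6 and 1 without replicate 3, and 3, 3, 3, 3 and 3 higher in the leave-one-out order), and their median log2 fold change was 1.52 with 6 libraries and 1.79 with 5. With the length trend removed, 7 rose and 1 fell, and the median was 2.34.

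Of 32 axon guidance genes (semaphorins, plexins, netrins and slits), 5 were higher and 7 lower with 6 libraries, where 8.96% and 11.3% of all genes were. Without BMSC-CT replicate 3, 11 were higher and 9 lower, where 21.3% and 24.0% of all genes were. In the leave-one-out order 2, 2, 3, 4 and 2 were higher and 0, 0, 2, 7 and 2 lower. Plxna3, a receptor for class III semaphorins, was at 197, 115 and 127 in BMSC-C and 1854, 1837 and 900.2 in BMSC-CT. Sema3b, a ligand of that class, was at 278, 268 and 257 in BMSC-C and 1206, 1272 and 984 in BMSC-CT. Both were higher in every treated library (Plxna3 log2 fold change 3.34, SE 0.37, adjusted p = 0.00289, and 3.69 without replicate 3; Sema3b log2 fold change 2.10, SE 0.20, adjusted p = 0.00181, and 2.21 without replicate 3), with replicate 3 the lowest of the 3.

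Several further lists held more lower than higher calls, to be read against 11.3% of all genes lower and 8.96% higher with 6 libraries, and 24.0% and 21.3% without BMSC-CT replicate 3. Complement genes fell in 6 of 24 and rose in 3 (13 and 4 without replicate 3, and 2, 2, 2, 7 and 3 lower in the leave-one-out order). IL-6 family cytokines and receptors fell in 5 of 15 and rose in 0 (8 and 1 without replicate 3, and 3, 3, 3, 5 and 4 lower in the leave-one-out order). Notch pathway genes fell in 5 of 12 and rose in 1 (6 and 2 without replicate 3, and 1, 1, 1, 6 and 2 lower in the leave-one-out order). The lower side also held more members of the Hox genes, which mark position along the body axis: 3 of 11 fell and 0 rose (6 and 1 without replicate 3, and 1, 1, 1, 3 and 1 lower in the leave-one-out order). Kinesins, the microtubule motors, fell in 4 of 20 and rose in 1 (7 and 2 without replicate 3, and 2, 2, 2, 6 and 3 lower in the leave-one-out order). NF-κB subunits and feedback genes did not share this with 6 libraries, where 1 of 18 fell and 2 rose. Without replicate 3, 5 fell and 3 rose. In the leave-one-out order 0, 0, 1, 2 and 0 were lower and 0, 0, 1, 1 and 0 higher. With the length trend removed, lower and higher members numbered 7 and 4 for complement, 5 and 0 for the IL-6 family and 5 and 2 for Notch. They numbered 4 and 1 for Hox genes, 3 and 1 for kinesins and 0 and 2 for NF-κB. The median log2 fold change went from -1.48 to -0.69 for Notch and from -0.85 to -0.20 for kinesins.

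**Figure D4:**
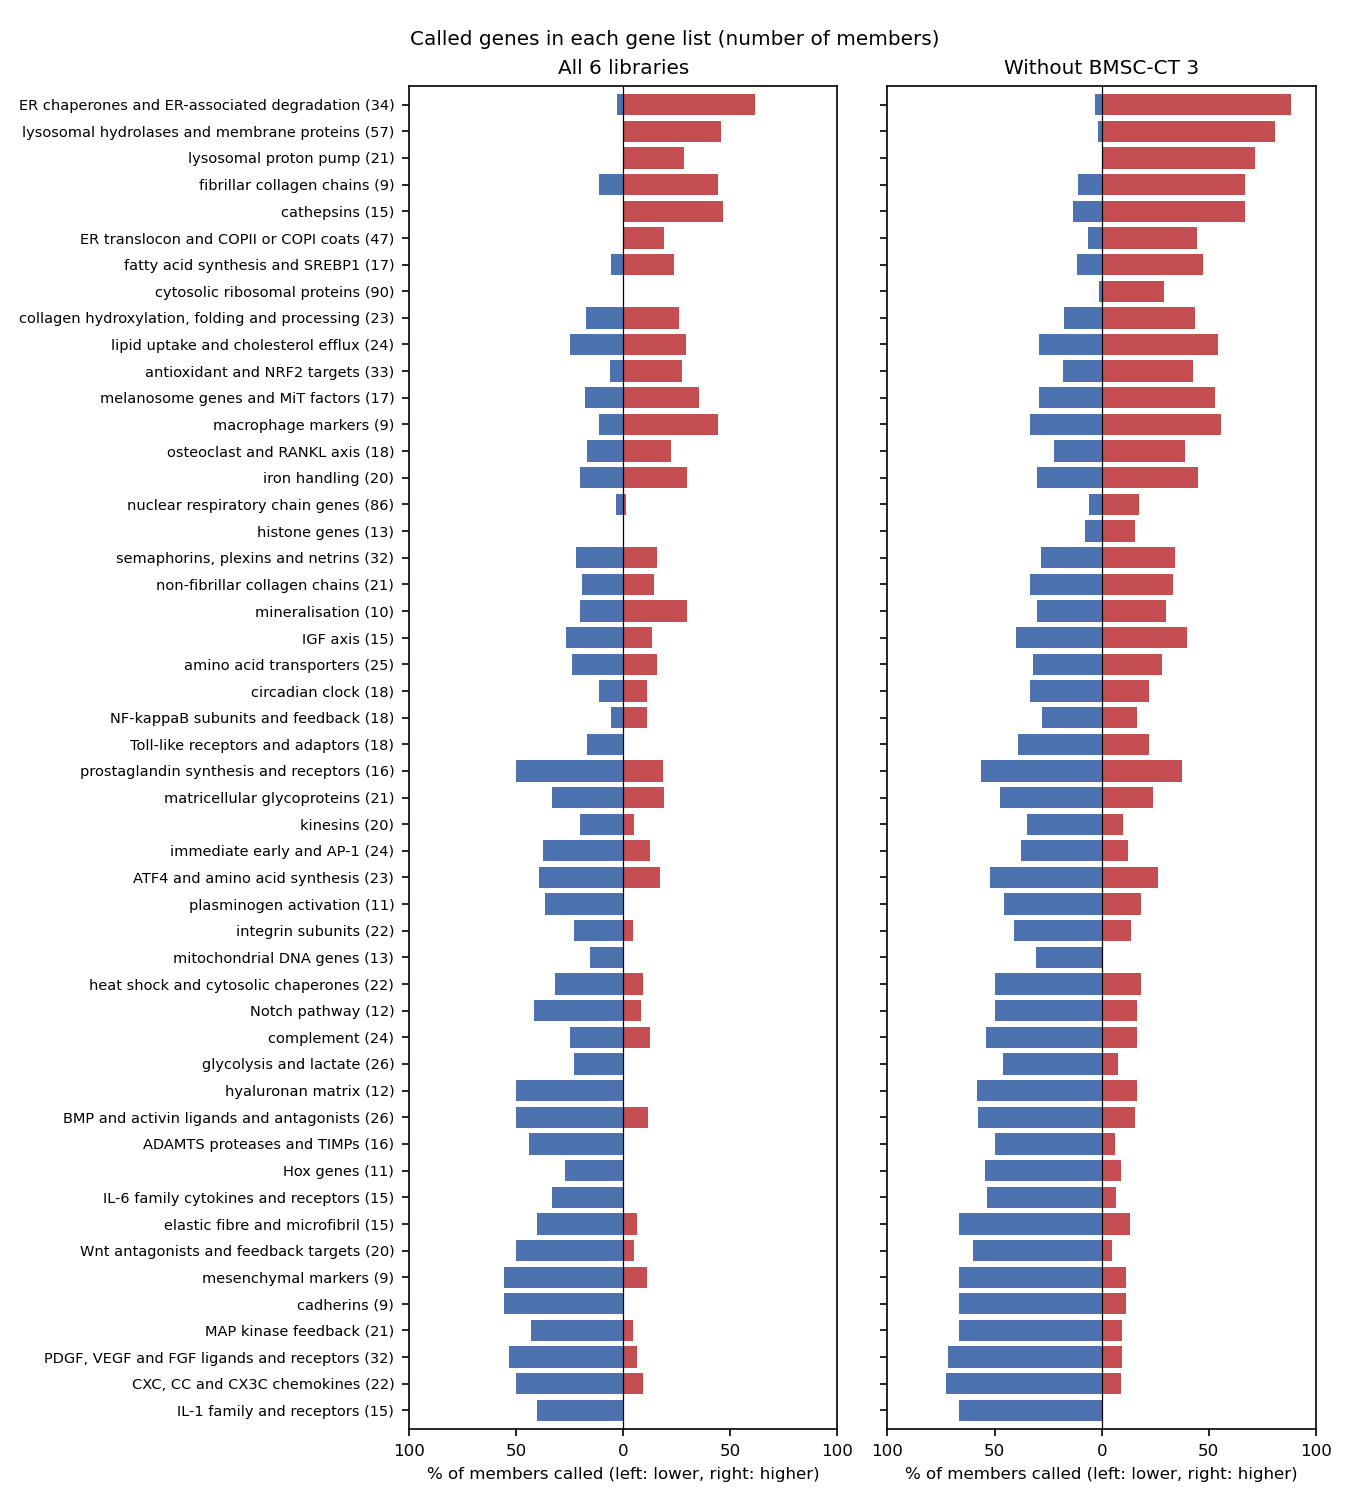
Calls in gene lists with at least 9 measured members. Bars give the share of members called higher and lower with 6 libraries and without BMSC-CT replicate 3, as a percentage of the members measured. Over all 13576 genes, which are not drawn, 8.96% were higher and 11.3% lower with 6 libraries. The ER chaperone list has 21 of 34 members higher and the growth factor list 17 of 32 lower.

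The cell type of the label was checked against markers. Over all genes, 8.96% were higher and 11.3% lower with 6 libraries (21.3% and 24.0% without BMSC-CT replicate 3). Mesenchymal markers were measured: 9 of 10 passed a mean of 10, and Lepr, at 0 in BMSC-CT replicate 3, did not. Their summed share of reads was 0.295% to 0.324% in BMSC-C and 0.0619% to 0.115% in BMSC-CT. In BMSC-CT 5 of the 9 fell (Thy1, Pdgfra, Prrx1, Twist2 and Cxcl12) and 1, Eng, rose, with 6 and 1 without replicate 3 and 2, 2, 2, 5 and 2 lower in the leave-one-out order. Macrophage markers were also measured, 9 of 10, at 0.839% to 1.01% of reads in BMSC-C and 1.04% to 1.34% in BMSC-CT. Of these, 4 were higher (Cd68, Csf1r, Lyz2 and Fcer1g) and 1, Adgre1, lower, and 5 higher and 3 lower without replicate 3, with 1, 1, 2, 5 and 2 higher in the leave-one-out order. The remaining marker, Cd163, was at 12.2, 17.8 and 16.5 in BMSC-C and at 0, 1.06 and 0 in BMSC-CT. Macrophages carry many lysosomes and express many of the lysosomal, iron and lipid genes above, and the part of these cells in those results was not tested. Osteoclast markers rose in 2 of 4 (Acp5 and Ctsk), with 2 higher and 1 lower (Ocstamp) without replicate 3 and 0, 0, 0, 2 and 1 higher in the leave-one-out order. No marker of B cells or endothelium reached a mean of 10, and 1 or 2 markers each of neutrophils, T and NK cells, mast cells, erythroid cells, megakaryocytes, adipocytes, osteoblasts, Schwann cells and muscle did. Of those, Cd8a and Alpl rose and the others were not called with 6 libraries. Without replicate 3, Klf1 was also higher and Kit lower. The call of Cd8a was lost without BMSC-C replicate 1 or 2, and that of Alpl without BMSC-C replicate 1 or BMSC-CT replicate 2.

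Ribosomal protein genes, short and abundant, were highest in BMSC-CT replicate 3. Of 90 cytosolic ribosomal protein genes, 0 were called with 6 libraries by limma, where 23 had an unadjusted p under 0.05, and 26 were higher and 1 lower without that library. edgeR called 1 higher and 0 lower and DESeq2 51 higher and 0 lower with all 6. The median log2 difference of these genes from the BMSC-C mean was 0.38, 0.82 and 2.64 in BMSC-CT replicates 1, 2 and 3. Rplp0, a protein of the large subunit's stalk, was at 36416, 40673 and 51356 in BMSC-C and 58159, 75717 and 283712 in BMSC-CT. The groups did not overlap, but it passed neither fit (adjusted p = 0.152 and 0.0745). Over all genes, 8.96% were called higher and 11.3% lower with 6 libraries, and 21.3% and 24.0% without replicate 3. Nuclear-encoded respiratory chain genes were called less often than that, higher in 1 and lower in 3 of 86 with 6 libraries and in 15 and 5 without replicate 3. In the leave-one-out order, 0, 0, 0, 5 and 1 were higher and 3, 2, 2, 3 and 2 lower, and DESeq2 called 33 higher and 5 lower with all 6. The 3 that fell included Ndufa4l2, a hypoxia-induced relative of a complex IV subunit, at 353, 356 and 354 in BMSC-C and 2.71, 2.11 and 6.44 in BMSC-CT, and Cox4i2, the hypoxia isoform of a complex IV subunit, at 361, 383 and 402 in BMSC-C and 1.81, 2.11 and 0 in BMSC-CT. Every treated value was under 7 counts (Ndufa4l2 log2 fold change -6.33, SE 0.44, adjusted p = 0.000679, and -6.71 without replicate 3; Cox4i2 log2 fold change -7.54, SE 0.53, adjusted p = 0.000737, and -7.02 without replicate 3).

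**Figure D5:**
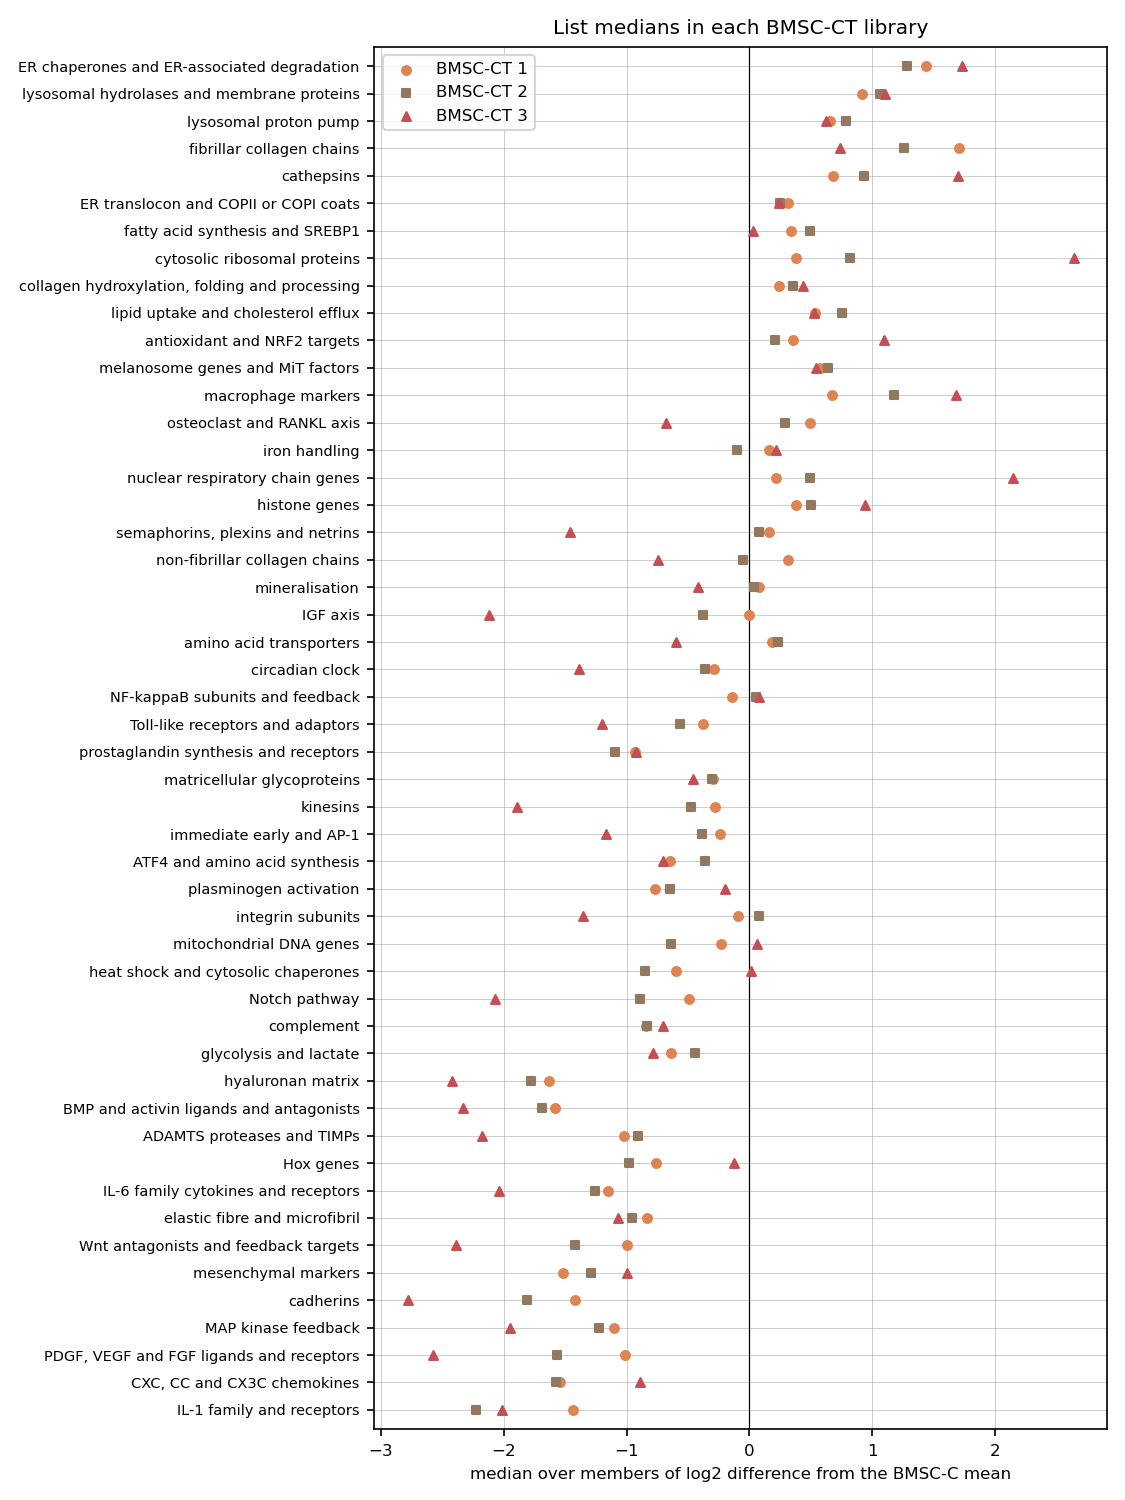
Median log2 fold change of each gene list in BMSC-CT replicates 1, 2 and 3. Each row is a list with at least 9 measured members, each point 1 treated library against the BMSC-C mean, and the line marks no change. The ribosomal protein list sits at 0.38, 0.82 and 2.64 in replicates 1, 2 and 3.

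Some abundant genes were steady once BMSC-CT replicate 3 was left out. Without BMSC-CT replicate 3, 1108 genes with a symbol had a 95% interval of the log2 fold change within -0.5 and 0.5. Smpdl3a, a lysosomal phosphodiesterase related to acid sphingomyelinase, was at 22977, 24284 and 25174 in BMSC-C and 22671, 21993 and 22493 in BMSC-CT, with an interval of -0.46 to 0.23. Hsp90ab1, the constitutive cytosolic Hsp90, was at 20784, 18056 and 19635 in BMSC-C and 18185, 19286 and 22163 in BMSC-CT, with an interval of -0.40 to 0.29. The control and treated values of Hsp90ab1 overlapped, and those of Smpdl3a lay next to each other without overlap. Col4a1, the basement membrane collagen chain, had an interval of -0.40 to 0.31, and Rpl4, a ribosomal protein, one of -0.28 to 0.40. With all 6 libraries none of these 4 was called (adjusted p = 0.697, 0.934, 0.451 and 0.36), and Rpl4 was at 12194, 13708 and 14334 in BMSC-C and 14645, 13274 and 42669.5 in BMSC-CT. Its value in BMSC-CT replicate 3 stood far above the other 5.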

How the data were processed

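RNA-seq libraries of 6 BMSC samples were used. The deposited values are normalized counts per gene (a signal unit). Per the values themselves, each is a whole number of reads divided by 1 size factor per library: 100% of the values divided out to whole reads within 0.01. The submitters' processing notes name Bowtie 0.12.2 and mm8, a mouse build, while the gene identifiers in the deposited table are rat Ensembl ones. The counting step, the build of the counts and the source of the size factors are not given in the sources used here, so no coordinate was taken from the files. The KEGG pathway gene counts are the authors' deposited numbers.

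Genes with a mean of at least 1 were tested on log2(normalized count + 1), computed from the deposited values, with limma 3.58.1 (empirical Bayes with a mean trend) in R 4.3.3, and p-values were adjusted over 16818 genes. The same fit was run without BMSC-CT replicate 3. Gene length effects were removed, as an alternative, by a loess curve (span 0.5) of each library's deviation against log length. edgeR 4.0.16 and DESeq2 1.42.0 were run on the recovered reads as alternatives, and the limma steps were tested on simulated data. With 3 libraries against 3, an exact permutation test of a single gene cannot go below p = 0.1, so none was used. Lists hold textbook members and are described by counts and medians. The genes and lists were chosen with earlier results of these data known. Genes named with values were the 12 largest rises and falls called in both fits, with groups that do not overlap and a mean at or above the median; the 8 largest gains and losses in mean count; up to 4 called members of each list with the smallest adjusted p (or, where fewer than 2 were called, the 2 most abundant); Ctgf, Tgfb1 and Col1a1; and the 6 most abundant genes whose interval lay within -0.5 and 0.5. The values given for Cd163, Kprp, Mn1 and Gdf6 lie outside this rule, and those genes were chosen after their values were seen. Near-identical copies (Cxcl1, Cxcl2 and Cxcl3; Tmem176a and Tmem176b; ribosomal protein genes) may share reads. Some genes that the naming rule selects are not reported here.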

Additional observations from a re-analysis of the deposited data

How the results depend on the processing

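The counts of called genes depended on the tool and on single libraries more than the directions of the named genes did. Requiring a fold above 2 left 602 genes (184 higher and 418 lower), DESeq2 called 5164 (2648 and 2516) and limma-voom with quality weights 8234 (3903 and 4331) against 2754 (1217 and 1537). Higher calls numbered 733 with total-read scaling and 2009 with the length trend removed. Leaving out 1 library gave 661 to 6141 genes, 244 to 2889 higher and 417 to 3252 lower, lowest without BMSC-C replicate 2 and highest without BMSC-CT replicate 3; the cause was not tested. TMM scaling, quantile normalization, other pseudocounts and filters and edgeR kept each count within 1.5 times. Without BMSC-CT replicate 3 the alternatives were repeated, a choice made after seeing the data: leaving out a further library gave 1905 to 5976 genes, 754 to 2833 higher and 1151 to 3143 lower, lowest without BMSC-CT replicate 2, where the remaining treated library is assumed to vary like the controls, and a fold above 2 gave 1065 (344 and 721). The fit with the replicate number as a block called 2780 genes (1280 higher and 1500 lower). Same-numbered libraries deviated from their group means with correlations of 0.284, -0.028 and 0.261, so the numbers were not taken as pairs. Of the values of the 242 named genes under an alternative, 385 lost and 32 gained a call and 0 reversed. Most of these genes were named because they were called, so these counts do not describe all genes. Over all genes called with 6 libraries, 19.9% of higher and 27.1% of lower calls were kept without BMSC-C replicate 2. Without BMSC-CT replicate 1, 87% and 89.4% were kept. Of 218 named genes called with 6 libraries, 140 kept the call without each library in turn and 78 lost it without at least 1, against 190 and 34 of the 224 called without BMSC-CT replicate 3. Among the 13576 genes, 575 were at 0 in BMSC-CT replicate 3 with reads in the other 5 libraries. Its total was 17285934 reads, against 16371542 in BMSC-CT replicate 2, and the cause of these zeros was not tested.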

Other observations

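Some values belong in no comparison above. Ftl1, the ferritin light chain, had the largest gain in mean count of any gene called in both fits, at 49739, 56408 and 75962 in BMSC-C and 150759, 219764 and 780014 in BMSC-CT, and copies of this gene may share its reads. The groups did not overlap, and its call (Ftl1 log2 fold change 2.31, SE 0.63, adjusted p = 0.0498, and 1.61 without replicate 3) was lost without BMSC-C replicate 1, 2 or 3 or BMSC-CT replicate 2 (adjusted p = 0.191, 0.172, 0.119 and 0.1). Cox6a2, the muscle isoform of a cytochrome oxidase subunit, was at 202, 184 and 182 in BMSC-C and 1090.5, 1404 and 6213 in BMSC-CT. Its treated values were all above the controls (Cox6a2 log2 fold change 3.48, SE 0.64, adjusted p = 0.0155, and 2.70 without replicate 3), and the call was lost without BMSC-C replicate 1, 2 or 3 (adjusted p = 0.0775, 0.0763 and 0.0643). The clock output gene Dbp, a PAR bZIP transcription factor, was at 342, 455 and 419 in BMSC-C and 2102, 2398 and 5287 in BMSC-CT. BMSC-CT replicate 3 was the highest, and the groups did not overlap (Dbp log2 fold change 2.89, SE 0.38, adjusted p = 0.00493, and 2.48 without replicate 3).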
